A study of Mus musculus with 4 samples.

Results

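Non-cycling plasma cells were found among cells that had been sorted as group 3 innate lymphoid cells (ILC3s), innate lymphocytes of the gut wall, out of small-intestinal lamina propria. The mice were Cxxc1flox/floxRorccre animals aged 6-8 weeks. In them floxed Cxxc1, which encodes a CXXC finger protein that binds CpG-rich DNA, is cut by a Cre recombinase under a promoter active in ILC3s, in some T cells and in developing thymocytes, and not known for activity in plasma cells. All cells used here carry that same genotype, and no Cxxc1-sufficient group was analysed here. Members were chosen by measured RNA: a plasma cell was a kept cell (at least 300 genes, at most 25% mitochondrial UMIs) with at least 3 unique molecular identifiers (UMIs, each a counted RNA molecule) over Mzb1, Derl3 and Tnfrsf17, no Cd3e UMI, and at most 1 UMI over the 6 cell cycle genes Mki67, Top2a, Birc5, Ube2c, Cdk1 and Pclaf. This gate took 277 of 6130 kept cells, 255 of 1945 in replicate 1 and 22 of 4185 in replicate 2. Cells that met the plasma cell part of the gate with 2 or more cell cycle UMIs, called cycling plasmablasts, numbered 133 and 2, and 1557 and 4161 other kept cells remained.

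Each of 2 replicates was captured once on the BD Rhapsody microwell system and sequenced as 2 of the 4 deposited samples. Nothing says that they came from different mice, so the spread between these replicates may be technical. The p-values and standard errors rest mainly on a spread pooled over all genes. They say little of how far the 2 replicates of a single gene differ. The plasma cells held 2174186 UMIs in replicate 1 and 186315 in replicate 2, with medians of 8777 and 8692.5 UMIs and of 1698 and 1581 detected genes per cell, against 3638 and 2360 UMIs per cell in the other kept cells. The tagged sets of the 2 captures shared 7 cell numbers. Cxxc1 itself had 132 and 10 UMIs in the plasma cells, or 118 and 103 CPM (UMIs per 1000000 UMIs outside immunoglobulin genes), against 63.3 and 60.2 in the other kept cells (edgeR adjusted p = 0.234). Which part of the gene these reads cover is not given, so they do not check the deletion.

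Plasma cells are the antibody-secreting end stage of B cell development. In the gut lamina propria most of them make immunoglobulin A (IgA), which the J chain joins into dimers that the polymeric immunoglobulin receptor of epithelial cells carries into the lumen. The regulators Blimp-1 (Prdm1), IRF4 and XBP1 set up the secretory state, in which the endoplasmic reticulum (ER) expands and the unfolded protein response raises its chaperones, while many genes of B cell identity are turned down.

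The share of plasma cells was very different in the 2 replicates. They were 13.1% of kept cells in replicate 1 (95% exact binomial interval, 11.6 to 14.7%) and 0.526% in replicate 2 (0.330 to 0.795%). Intervals here cover counting error only. The replicates agreed closely in how much of the RNA of a plasma cell was immunoglobulin. Summed over cells, 48.7% of UMIs in replicate 1 and 48.0% in replicate 2 lay on immunoglobulin gene segments, with medians per cell of 52.6% and 53.7%. The lowest and highest plasma cells had 0.343% and 71.7% in replicate 1, and 3.94% and 63.1% in replicate 2. In cycling plasmablasts the summed share was 27.8% and 23.2%, the latter from 2 cells, and in the other kept cells it was 5.10% and 0.245%.

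**Figure D1:**
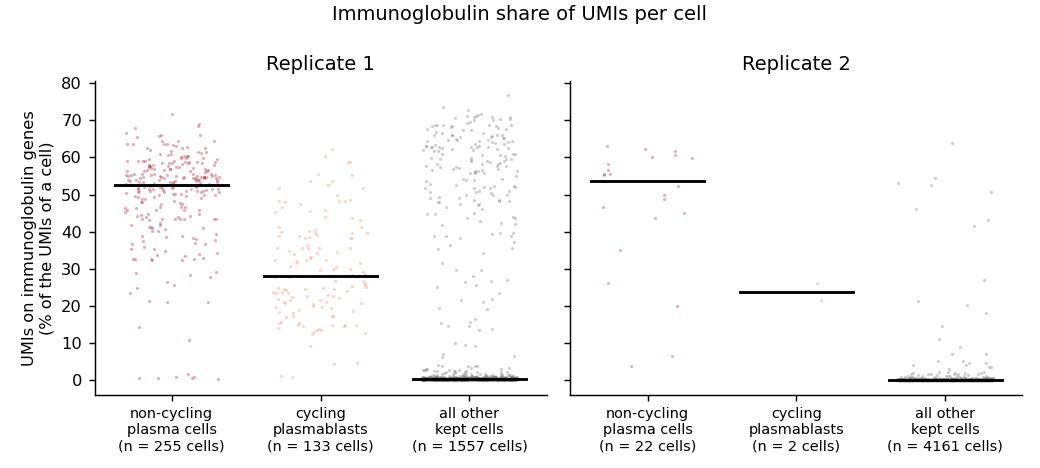
Each point is a kept cell, the vertical axis gives the percent of its UMIs on immunoglobulin genes, and the black bar is the median. The medians of the plasma cells are 52.6% and 53.7%, and a second cloud of high-immunoglobulin cells lies among the other kept cells of replicate 1.

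The gate left immunoglobulin-rich cells outside and let some immunoglobulin-poor cells in. Among the other kept cells, 192 in replicate 1 and 14 in replicate 2 had at least 10% immunoglobulin UMIs, with a median of 2629.5 UMIs per cell in replicate 1. Just outside the gate, at 2 gate UMIs, lay 39 cells in replicate 1 with a median immunoglobulin share of 55.8%, and just inside, at 3 gate UMIs, lay 15 cells with 59.8%. In replicate 2 these were 2 cells with 35.5% and 3 cells with 6.57%. Another 24 and 3 cells passed the plasma cell part of the gate but had a Cd3e UMI. Within the gate, 7 cells in replicate 1 and 2 cells in replicate 2 had under 10% immunoglobulin UMIs, and for these 9 cells the label of plasma cell was doubtful. They had 3 to 5 gate UMIs, and 3 of them carried 11 to 18 UMIs of ILC3 markers with no Siglech UMI. Another had 25 UMIs of dendritic cell markers, and 1 carried 35 UMIs of the B cell marker list, which includes Ms4a1 (CD20) and Pax5. Another 4 carried 12 to 26 UMIs of Siglech, a lectin of plasmacytoid dendritic cells, which are also known to express Mzb1, and 1 of these held 40 UMIs of ILC3 markers, 32 of them Il22. Siglech was looked at after the values were seen. All 73 Siglech UMIs and 51 of 54 Cd8a UMIs of the plasma cells in replicate 1 were in these low-immunoglobulin cells.

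IgA was the isotype of nearly all plasma cells. Isotype was called where a cell had at least 10 UMIs over the constant genes Igha, Ighm, Ighg1, Ighg2b, Ighg2c and Ighg3, with at least 80% on Igha for IgA or at least 80% on the others. IgA-dominant cells were 246 of 255 in replicate 1 (96.5%, 95% exact interval 93.4 to 98.4%) and 22 of 22 in replicate 2 (lower bound 84.6%). These counts include doubtful low-immunoglobulin cells, with 10 and 14 Igha UMIs in replicate 1 and 45 and 39 in replicate 2. Igha filled 15.7% and 17.0% of all UMIs of the plasma cells, and the kappa constant gene Igkc filled 29.6% and 27.5%. Immunoglobulin RNA was also found in cells that should lack it. Among cells of a T cell gate (a Cd3e UMI, under 10% immunoglobulin, fewer than 3 gate UMIs and under 20 UMIs over Col1a1, Col1a2, Col3a1 and Dcn), 95.5% in replicate 1 and 23.2% in replicate 2 had an Igha UMI, but there Igha was 0.140% and 0.0149% of UMIs. Shares of cells with an immunoglobulin UMI are therefore not read as expression here. The highest T cell gate cells held 50 Igha UMIs in replicate 1 and 22 in replicate 2.

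The 4 plasma cells of other isotypes were all in replicate 1. Ighg2b led in 2 of them, with 3109 and 1884 UMIs against 14 and 59 Igha UMIs. Ighm led in another with 1380 UMIs against 34 of Igha, and Ighg1 in the last with 786 against 17. The 5 remaining cells, all among the low-immunoglobulin cells, had no dominant isotype, and their immunoglobulin share was 0.599 to 1.03%. Jchain, which encodes the J chain of polymeric IgA and IgM, was present in all 4, including those dominated by IgG genes. It was 4.18% and 3.42% of UMIs in the Ighg2b cells, 5.25% in the Ighm cell and 0.827% in the Ighg1 cell, against a median of 6.46% in the IgA-dominant cells of replicate 1 and 6.16% in those of replicate 2. With 4 cells in replicate 1 and 0 in replicate 2, the isotypes were not tested against each other.

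In nearly all IgA-dominant plasma cells with enough UMIs to tell, 1 heavy chain variable gene dominated. Rearranged sequences were not read. Among IgA-dominant cells with at least 10 UMIs on heavy chain variable genes, 1 gene held at least 80% of those UMIs in 176 of 181 cells in replicate 1 (97.2%, 93.7 to 99.1%) and in 18 of 19 in replicate 2. The genes were diverse, with 54 different ones in the 176 cells and 15 in the 18. Ighv1-72 was the most frequent in both, with 18 and 3 cells. For light chain variable genes the same held in 137 of 220 cells (62.3%, 55.5 to 68.7%) and 12 of 19, and Igkv10-96 led 29 of the 137. Kappa was the light chain in 236 of 246 IgA-dominant cells (95.9%) and 21 of 22 (95.5%), and lambda in 6 and 1. Near-identical variable genes can share reads, so the identity of the leading gene is less certain than its dominance.

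For the other genes, UMIs were summed over cells per replicate and class and are given in CPM over the UMIs outside immunoglobulin genes, so that the large immunoglobulin share does not lower them. Plasma cells were compared with all other kept cells by edgeR's quasi-likelihood test with replicate as a block, at a Benjamini-Hochberg adjusted p under 0.05 over 9637 genes. Of these, 599 (6.22%) were higher and 1237 (12.8%) were lower in plasma cells, 19.1% in either direction, and the median log2 fold change of all tested genes was -0.25. The other kept cells are a mixture of T cells, ILC3s, stromal and other cells with the immunoglobulin-rich cells described above, and the gate itself chose cells by 3 plasma cell genes, so that a higher level of genes that accompany them follows from the choice of cells. The share of higher genes among all calls was 32.6%, but 57.5% with DESeq2 (338 higher, 250 lower) and 48.0% when every cell was thinned to 1000 UMIs outside immunoglobulin genes (250 higher, 271 lower).

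The genes with the largest increase were led by Jchain (chromosome 5, 88519809 to 88527897, GRCm38.p6). It stood at 119765 CPM in replicate 1 and 110404 in replicate 2 of the plasma cells, against 2552 and 205 in the other kept cells. No other non-immunoglobulin gene named here came near that level. The difference was 7.29 on the log2 scale (standard error 0.36, adjusted p = 6.03e-88). Cd79a, a signalling chain of the B cell receptor, followed at 1018 and 1310 CPM against 27.6 and 2.14 (log2 7.09, standard error 0.54, adjusted p = 6.09e-36). Vpreb3, a surrogate light chain related gene of B-lineage cells, was at 475 and 320 against 12.3 and 0.770. Pou2af1, the octamer coactivator OBF-1 that immunoglobulin gene expression uses, was at 643 and 495 against 22.5 and 1.03 (log2 6.48). In all 4 genes both plasma cell values lay above both values of the other cells.

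The other genes of the top 10 were less tied to immunoglobulin production. Ccr10, the receptor for the epithelial chemokines CCL27 and CCL28 that draw IgA plasma cells to mucosa, had 422 and 413 CPM against 15.5 and 0.513 (log2 6.44, standard error 0.56, adjusted p = 7.34e-27). A Ccr10 UMI was seen in 66.3% and 59.1% of plasma cells and in 0.345% and 0.0539% of T cell gate cells. After thinning to 1000 UMIs outside immunoglobulin genes, which left out 7 and 0 shallower plasma cells and 0 and 82 T cell gate cells, these shares were 30.6% and 22.7% against 0.345% and 0.0%. Slpi, a secreted protease inhibitor of mucosal surfaces, was at 427 CPM in replicate 1 and 1300 in replicate 2 of the plasma cells against 16.8 and 4.11, the widest gap between replicates in this group. Ly6d, a surface marker of early B-lineage commitment, stood at 328 and 464 against 18.6 and 0.0856, and 35.6% of its UMIs in replicate 2 were in 1 cell. Prg2, known as the major basic protein of eosinophils, was at 234 and 258 against 4.96 and 1.88. St8sia6, a sialyltransferase, was at 194 and 237 against 6.43 and 1.71, and Eaf2, a partner of the transcription elongation factor ELL2, at 436 and 227 against 18.6 and 1.8. The size of these 10 increases depended on the replicate and on the immunoglobulin-rich cells among the others. Their log2 fold changes were 5.65 (Eaf2) to 7.29 (Jchain), but 4.20 (Ly6d) to 5.62 (Jchain) without replicate 2 and 7.01 (Eaf2) to 11.86 (Ly6d) without replicate 1. They were 6.84 (St8sia6) to 10.52 (Jchain) without the low-immunoglobulin plasma cells and the immunoglobulin-rich other cells, with Ccr10 at 9.51.

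**Figure D2:**
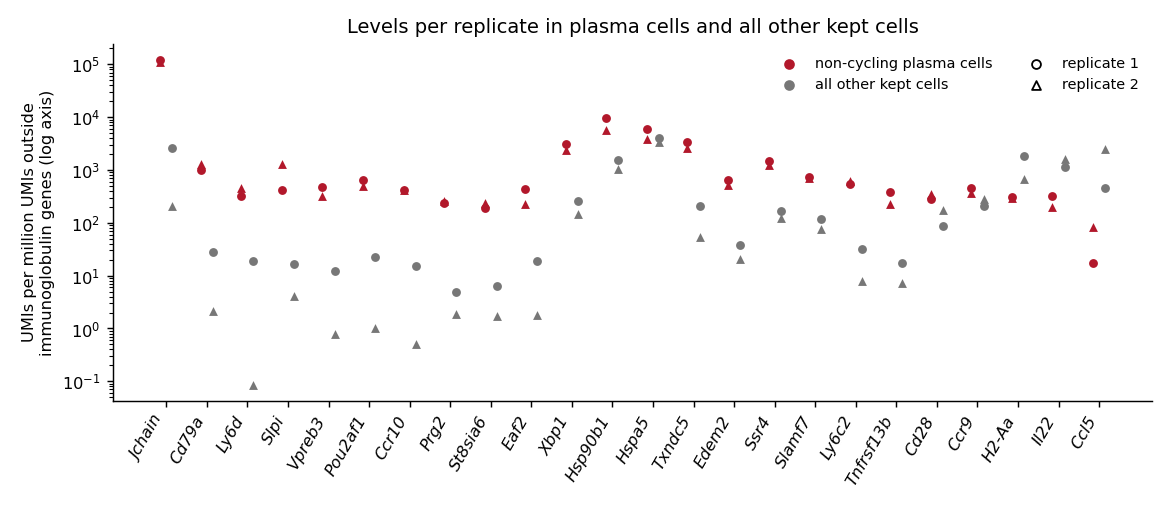
Each point is the level of a gene in 1 replicate, on a log axis in CPM outside immunoglobulin genes, for plasma cells (red) and all other kept cells (grey), with circles for replicate 1 and triangles for replicate 2. The 10 genes at the left, Jchain to Eaf2, have the largest increases by log2 fold change over both replicates among the genes shown, and Hspa5 lies close in both classes.

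Of the 14 tested plasma cell regulators, 8 were higher and 1 was lower, with a median log2 fold change of 2.39. Xbp1, whose spliced form drives ER expansion, had 3151 and 2341 CPM in plasma cells and 263 and 148 in the other kept cells (log2 3.84, standard error 0.41). Prdm1 was at 299 and 351 against 46.0 and 46.8, and Irf4 at 185 and 196 against 25.1 and 29.2, with log2 fold changes of 2.84 and 2.87. Ell2, an elongation factor that favours the secretory form of heavy chain RNA, had 874 and 835 against 163 and 204. Tent5c, a poly(A) polymerase that stabilises secretory RNAs, rose by 4.06 on the log2 scale. Bhlha15 (MIST1), a transcription factor of secretory cells, had 126 and 165 CPM against 5.23 and 0.0856. Ets1, which restrains plasma cell differentiation, was the gene that was lower, at 126 and 155 against 358 and 708 (log2 -1.78, adjusted p = 0.00145).

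Of 12 tested genes of B cell identity, 5 were higher, 1 was lower and 6 did not pass, and Pax5 and Cr2 were among the listed genes with too few UMIs to be tested. The higher genes included the receptor signalling genes Cd79a, Cd79b and Blnk together with Ms4a1. Cd79b stood at 229 and 258 CPM against 11.4 and 4.36, and Blnk, an adaptor below the receptor, at 194 and 165 against 11 and 1.11. The call of Ms4a1 rested on 12 and 3 UMIs, of which 11 in replicate 1 came from the cell with B cell markers. With the low-immunoglobulin cells and the immunoglobulin-rich other cells left out, Ms4a1 had too few UMIs to be tested, and with a gate of 6 UMIs its adjusted p was 0.883. Bcl6, the germinal centre regulator, was lower, with 2 and 0 UMIs in plasma cells and 27.1 and 31.1 CPM in the other kept cells.

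Most of the listed genes of the ER were higher. Among genes of protein entry into the ER, 18 of 24 were higher, 0 lower and 6 did not pass, with a median log2 fold change of 1.78. Sec11c, a subunit of the signal peptidase, stood at 2490 and 2496 CPM against 422 and 572, and Ssr4, of the translocon-associated complex, at 1495 and 1258 against 166 and 124. Spcs1, another signal peptidase subunit, and Sec61b, of the translocation channel, had log2 fold changes of 2.72 and 2.37. Of 15 genes of N-glycosylation, 10 were higher and 0 lower, with a median of 1.26, among them the oligosaccharyltransferase genes Krtcap2 at 1161 and 1217 against 310 and 366 and Ddost at 535 and 382 against 183 and 153. Of 15 genes of ER-associated degradation, 12 were higher and 0 lower, with a median of 1.84. Edem1 and Edem2, which take misfolded glycoproteins out of the folding cycle, were at 2342 and 1764 against 233 and 214, and at 637 and 516 against 38.1 and 20.4. The ubiquitin ligase gene Syvn1 and its partner Sel1l rose by 2.33 and 2.94 on the log2 scale.

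Of 25 tested chaperones and folding enzymes of the ER, 17 were higher, 0 lower and 8 did not pass, with a median of 1.90. Hsp90b1 (GRP94), a chaperone of immunoglobulin chains, stood at 9720 CPM in replicate 1 and 5642 in replicate 2, against 1523 and 1047 in the other kept cells (log2 2.59, standard error 0.34, adjusted p = 2.09e-12). Txndc5, a disulphide isomerase of plasma cells, was at 3325 and 2579 against 205 and 54.2 (log2 4.84). Creld2 was at 960 and 433 against 117 and 60.7, and Pdia4 at 1069 and 681 against 120 and 71.5. Hspa5 (BiP), the chaperone that holds free heavy chains, was abundant in both classes and did not pass. Its levels were 6059 and 3847 in plasma cells against 4116 and 3319 in the other kept cells (log2 0.42, standard error 0.33, adjusted p = 0.441). Calr did not pass either, at 2563 and 1991 against 1731 and 1502. Thinning ended the call of 48 of the listed and named genes, Hsp90b1 among them (adjusted p = 0.0796, log2 2.65).

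Several promoters of the ER chaperones hold an element known from ER stress. The ER stress response element ERSE, here CCAAT and CCACG with 9 bases of any kind between them, searched on both strands, is bound by ATF6 with NF-Y and by XBP1. In the windows of 250 bases before to 50 bases after the gene start in RefSeq (GRCm38.p6), it was found in 8 of 23 chaperone genes that had a window. It was found in 37 of 27025 genes in all (0.137%), and in 13 of 7606 tested genes (0.171%). The 8 genes were Calr, Canx, Creld2, Dnajc3, Ero1b, Hsp90b1, Hspa5 and Pdia6. Windows of 3 of them are shown because Hsp90b1 and Creld2 were higher in plasma cells while Hspa5, which holds the element too, was not. The capitals mark ERSE matches, 2 in Hsp90b1 and 1 in each of the others. The windows lie at chr10:86705395-86705694 (minus strand), chr15:88819396-88819695 (plus strand) and chr2:34771840-34772139 (plus strand).
Hsp90b1: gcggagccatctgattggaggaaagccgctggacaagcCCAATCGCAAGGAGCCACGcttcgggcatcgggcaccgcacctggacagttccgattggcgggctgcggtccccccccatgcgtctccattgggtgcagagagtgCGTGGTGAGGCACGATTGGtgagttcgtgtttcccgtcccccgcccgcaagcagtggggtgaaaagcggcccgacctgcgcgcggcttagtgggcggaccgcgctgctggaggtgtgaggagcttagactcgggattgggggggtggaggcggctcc
Creld2: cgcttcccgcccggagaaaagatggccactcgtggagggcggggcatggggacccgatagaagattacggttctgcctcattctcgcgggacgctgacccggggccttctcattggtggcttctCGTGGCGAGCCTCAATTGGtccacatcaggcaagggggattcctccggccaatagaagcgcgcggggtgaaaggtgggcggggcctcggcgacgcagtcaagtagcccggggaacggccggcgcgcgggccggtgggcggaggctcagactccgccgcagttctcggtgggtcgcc
Hspa5: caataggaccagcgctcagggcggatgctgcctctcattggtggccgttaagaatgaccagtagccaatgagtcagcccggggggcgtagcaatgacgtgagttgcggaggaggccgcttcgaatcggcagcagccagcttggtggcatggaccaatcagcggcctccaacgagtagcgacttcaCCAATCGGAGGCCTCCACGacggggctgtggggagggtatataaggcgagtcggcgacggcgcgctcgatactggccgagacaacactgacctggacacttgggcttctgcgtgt

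A second element, the unfolded protein response element core TGACGTGG, which XBP1 binds, searched on both strands, was found in 193 of the 27025 genes (0.714%), in 86 of 7606 tested genes (1.13%) and in 10 of 456 genes that were higher in plasma cells and had a window (2.19%). Txndc5 and Pou2af1 are among the 10. Their windows are shown because both had some of the larger increases, with the element in capitals, at chr13:38527865-38528164 (minus strand, 1 of 3 Txndc5 windows) and chr9:51213440-51213739 (plus strand). A match is a description of the sequence, and binding was not measured.
Txndc5: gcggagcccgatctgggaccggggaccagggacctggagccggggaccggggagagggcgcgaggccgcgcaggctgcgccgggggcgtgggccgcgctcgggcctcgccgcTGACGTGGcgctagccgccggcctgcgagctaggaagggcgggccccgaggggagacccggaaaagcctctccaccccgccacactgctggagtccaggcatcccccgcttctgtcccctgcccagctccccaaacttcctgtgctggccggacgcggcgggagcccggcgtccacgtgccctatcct
Pou2af1: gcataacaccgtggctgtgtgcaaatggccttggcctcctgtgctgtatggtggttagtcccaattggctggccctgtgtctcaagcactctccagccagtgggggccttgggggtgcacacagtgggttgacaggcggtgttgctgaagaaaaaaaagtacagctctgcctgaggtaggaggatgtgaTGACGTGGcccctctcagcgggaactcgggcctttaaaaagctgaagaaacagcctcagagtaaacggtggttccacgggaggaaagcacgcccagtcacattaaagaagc

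Of 11 tested stress sensor and response genes, 5 were higher and 0 lower. Eif2ak3 (PERK), a kinase that slows translation under ER stress, stood at 298 and 330 CPM against 39.3 and 18.6 (log2 3.55), and Atf6 at 456 and 474 against 132 and 133 (log2 1.84). The targets of the PERK branch were uneven. Asns (asparagine synthetase) rose by 4.07 and Chac1 by 4.50 on the log2 scale, whereas Atf4, Ddit3 (CHOP) and Ppp1r15a did not pass, with log2 fold changes of 0.20, 0.37 and -0.40. Ern1, which encodes the sensor IRE1α that splices Xbp1 RNA, did not pass at 84.3 and 103 against 105 and 155. Past the ER, 7 of 23 genes of ER to Golgi transport were higher, 0 lower and 16 did not pass. Lman1 (ERGIC-53), a cargo receptor that takes part in IgM assembly, was at 747 and 743 against 116 and 57.5 (log2 3.25), and Tmed10 was at 799 and 774 against 295 and 272. Of 14 genes of amino acid transport and metabolism, 7 were higher, with Slc3a2, the heavy chain of amino acid exchangers, at 1154 and 1104 against 337 and 428. Slc38a2 and Slc1a5 did not pass, and the cystine transporter gene Slc7a11 was lower with 3 and 0 UMIs.

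**Figure D3:**
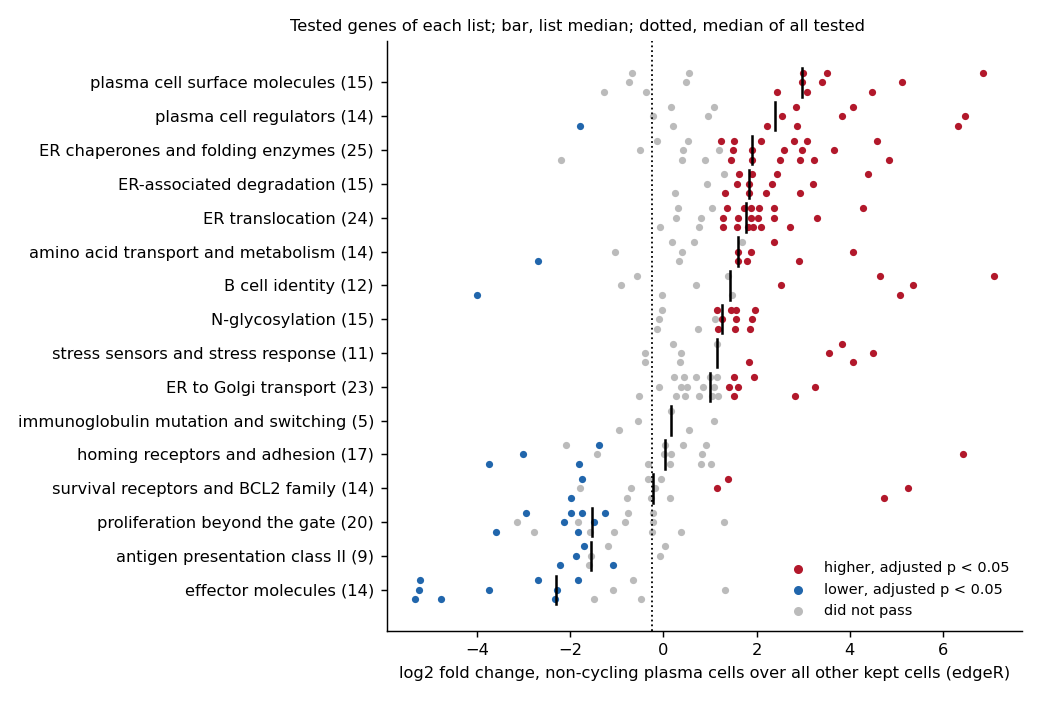
Each point is a tested gene of a list and the horizontal axis is its log2 fold change, plasma cells over all other kept cells, coloured by its call in edgeR. The black bar is the list median and the dotted line the median of all tested genes at -0.25. The lists of ER entry, chaperones, N-glycosylation and ER-associated degradation lie at medians of 1.26 to 1.90 and the effector molecules at -2.31.

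Of 15 tested surface molecules of plasma cells, 9 were higher and 0 lower, with a median log2 fold change of 2.98. Sdc1 (CD138), the classical plasma cell proteoglycan, stood at 432 and 444 CPM against 50.3 and 36.1, and Slamf7, a receptor of plasma cells and lymphocytes, at 745 and 701 against 116 and 75.5. Cd93, needed for plasma cell upkeep in the bone marrow of mice, was at 330 and 619 against 48.4 and 63.3. Ly6c2 was at 546 and 609 against 31.5 and 8.04 (log2 5.12), and Cd274, which encodes PD-L1, at 790 and 495 against 159 and 88.5. Of the survival receptors and BCL2 family, 4 of 14 were higher and 2 lower. Tnfrsf13b (TACI), a receptor for BAFF and APRIL, was at 386 and 227 against 17.7 and 7.10 (log2 4.74). Cd28, a costimulatory receptor known on T cells and long-lived plasma cells, was at 277 and 351 against 85.8 and 173 (log2 1.39, adjusted p = 0.0168). Mcl1, a survival factor of plasma cells, was at 851 and 1000 CPM against 468 and 387 (log2 1.16, adjusted p = 0.0229), while Bcl2 was lower with log2 -1.75. Thinning and leaving out the filter on low counts each ended the calls of Cd28 and Mcl1, and DESeq2 that of Mcl1.

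Among 17 tested homing and adhesion genes, Ccr10 alone was higher. Ccr9, the small-intestinal homing receptor, did not pass at 457 and 371 CPM against 207 and 278, and it was at 856 and 511 in the T cell gate. Without plasma cells with 1% or more UMIs of other lineages, 4 of the 17 were higher, Ccr9 among them (log2 1.00, adjusted p = 0.0307). Itgb7 and Itga4, which form the gut integrin, did not pass either, at 320 and 289 against 209 and 381 and at 459 and 278 against 194 and 225. Ccr7, Itgb1, Itgae and Vcam1 were lower. Itgae, the integrin that holds lymphocytes to epithelium, had 10 and 1 UMIs in plasma cells, 8.97 and 10.3 CPM against 73.7 and 96.3. In replicate 2 alone, Vcam1 was higher in plasma cells (log2 1.00), since 5 UMIs came from 1 cell.

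Lower genes were found in several other lists, with a majority lower among the effector molecules. Of 9 tested class II genes, 4 were lower and 5 did not pass. H2-Aa stood at 307 and 289 against 1865 and 665, and 198 of its 342 UMIs in replicate 1 were in the low-immunoglobulin cells. Cd74, the invariant chain, did not pass at 1695 and 1423 against 2489 and 1153. Of 14 tested effector molecules, 9 were lower and 0 higher, among them Ccl5 at 17.0 and 82.5 against 448 and 2500, Gzmb at 10.8 and 41.3 against 550 and 1043, and Il22 at 319 and 196 against 1164 and 1617. The Il22 UMIs of plasma cells in replicate 1 were uneven, with 33.4% of 356 in 1 cell. Of 20 proliferation genes outside the gate, 8 were lower and 12 did not pass, a direction that the gate on cell cycle genes favours. Of 5 tested genes of immunoglobulin mutation and switching, none passed. The 10 genes with the largest decrease had 0 UMIs in all plasma cells. At the levels of the other kept cells in each replicate, the plasma cells would have held 122 Cd3g UMIs, which against a floor of 3 UMIs over both replicates makes Cd3g at least 40.6-fold lower. Smoc2 was at least 17.4-fold, Cd247 at least 12.5-fold and Trat1 at least 11.8-fold lower. Cd3g, Cd247 and Trat1 are parts or partners of the T cell receptor, and cells with a Cd3e UMI had been kept out by the gate. The others were F830016B08Rik, Cd40lg, Gzmk, Ier5l, Rab32 and Il1rl1, the last at least 8.16-fold lower. In replicate 2 the plasma cells held 96953 UMIs outside immunoglobulin genes, against 1114490 in replicate 1. A level of 0 in replicate 2 thus carries little weight for F830016B08Rik, Smoc2 and Rab32, at 23.4, 18.5 and 9.50 CPM in its other kept cells. It carries little more for Ier5l and Gzmk, at 35.7 and 40.7 CPM there.

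UMIs of marker lists of other lineages were also counted in the plasma cells, and their part in the results was not tested. All 10 stromal markers (such as Col3a1 and Dcn) had UMIs in replicate 1 and 9 of 10 in replicate 2, with Pdgfrb at 0, at summed levels of 1998 and 16018 CPM against 30601 and 12387 in the other kept cells. The median plasma cell had 5 and 2.5 stromal UMIs and the highest 333 and 851. The T cell list summed to 411 and 474 CPM against 1033 and 2911, with Cd3e and Cd3g at 0 in both replicates, and Cd28, described above, made up 309 of 458 UMIs in replicate 1 and 34 of 46 in replicate 2. The ILC3 list, in which Ncr1 was at 0 in replicate 2, summed to 1847 and 1877 against 3707 and 3754. Tmem176a and Tmem176b held 613 and 983 of its 2058 UMIs in replicate 1, spread over 184 and 202 of 255 plasma cells. The dendritic cell list was at 82.5 and 20.6 against 353 and 128, and 6 of its 8 markers were at 0 in replicate 2. In replicate 1, 61 of the 92 UMIs of that list were in the low-immunoglobulin cells. The macrophage and monocyte list summed to 607 and 722 against 393 and 418, of which Ly6c2 made up 608 of 677 UMIs in replicate 1 and 59 of 70 in replicate 2, and Fcgr1 was at 0 in both. Another setting left out plasma cells with 1% or more of their UMIs outside immunoglobulin genes on T cell, stromal, dendritic or macrophage markers. Cd28 and Ly6c2 were not counted towards this 1%. With it 252 and 20 cells stayed, and 911 genes were higher and 1941 lower.

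Among plasma cells, Jchain varied most beyond counting error in both replicates, with Gm42418, Il22 and Dcn next in replicate 1 and Col3a1, Col1a1 and Sparc next in replicate 2. Hsp90b1 and Ly6c2 are described further, a choice made after their values were seen. In this comparison, cells with at least 10% immunoglobulin UMIs were used, 248 in replicate 1 and 20 in replicate 2, and the values are a description. Over all plasma cells, Jchain ranged from 0 to 1362 UMIs per cell in replicate 1, with a median of 529, and from 2 to 859 in replicate 2, with a median of 513. Its level rose with the immunoglobulin share of the cell (Spearman's rho 0.46 and 0.69), and so did the mitochondrial Cytb RNA (0.50 and 0.51). Hsp90b1 ran the other way (-0.42 and -0.28), and so did Hspa5 (-0.35 and -0.33) and Calr (-0.45 and -0.38). Both measures come from the same cell and library, and all levels outside immunoglobulin genes share a total. In the cells of replicate 1 at or under the median immunoglobulin share, Hsp90b1 was at 12178 CPM and in those above it at 6901. In replicate 2 these were 6136 and 5441, from 10 cells each. Txndc5 was at 3425 and 3519 CPM in replicate 1 and at 2461 and 3241 in replicate 2.

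**Figure D4:**
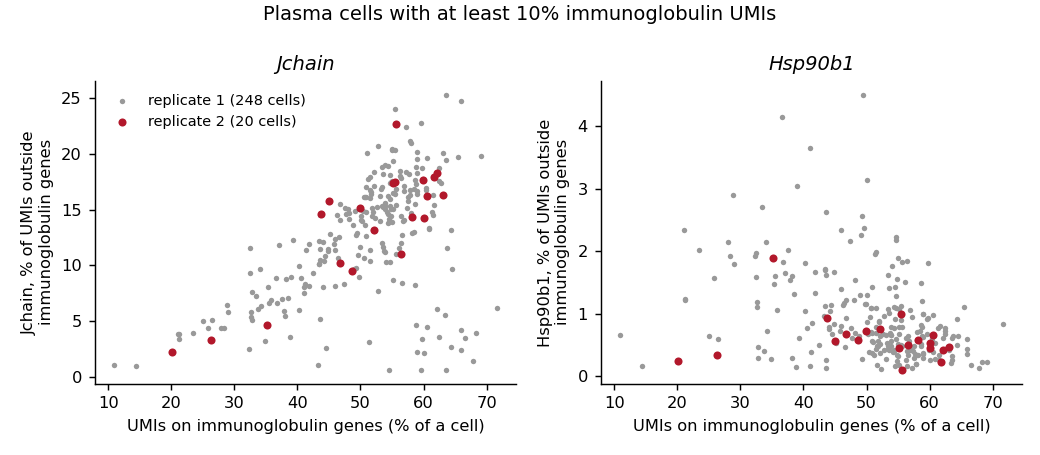
Each point is a plasma cell with at least 10% immunoglobulin UMIs, the horizontal axis is its immunoglobulin share of UMIs, and the vertical axis gives Jchain (left) or Hsp90b1 (right) as percent of its UMIs outside immunoglobulin genes. In replicate 1, 19 cells above 45% immunoglobulin lie under 7% Jchain, apart from the rising cloud.

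The 19 cells of replicate 1 with at least 45% immunoglobulin UMIs and under 7% Jchain stood apart in more than Jchain. Both limits were set after the values were seen, and nothing was tested. Their median was 1130 UMIs outside immunoglobulin genes against 4076 in the 165 plasma cells above the Jchain limit, and 25.9% of those UMIs were mitochondrial against 8.34%. The nuclear RNA Malat1 was at 30921 CPM against 4812. Igkc outnumbered Igha 7.69-fold in the median cell against 1.77-fold, and variable genes made up 0.202% of immunoglobulin UMIs against 4.72%. The same profile was found outside the gate, where 132 of 149 other kept cells with at least 45% immunoglobulin UMIs had under 7% Jchain. There the median was 932 UMIs outside immunoglobulin genes, 34.2% of them mitochondrial, with an Igkc to Igha ratio of 24.9 and 0 gate UMIs. Of the cycling plasmablasts with as much immunoglobulin, 4 of 22 lay under the Jchain limit. In replicate 2, 0 of 16 plasma cells and 3 of 6 other kept cells did, the latter with a median of 634 UMIs outside immunoglobulin genes and Malat1 at 24962 CPM. The part of depth and mitochondrial RNA in the low Jchain level was not tested.

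Ly6c2 divided the plasma cells. It had at least 1 UMI in 118 of 248 cells in replicate 1 (47.6%) and 13 of 20 in replicate 2 (65.0%), and the highest cells held 72 and 25 UMIs. Among T cell gate cells a Ly6c2 UMI was seen in 2.07% and 0.755%. After thinning, the shares were 24.6% and 22.7% of all plasma cells against 1.03% and 0.226%. The cells with Ly6c2 had a median of 4557 UMIs outside immunoglobulin genes against 3878 without it in replicate 1, and 3851 against 3735 in replicate 2. Ly6d was at 424 CPM with Ly6c2 and 202 without it in replicate 1, where 55.9% and 23.8% of the cells had a Ly6d UMI. In replicate 2 it was at 549 and 374 CPM, with 16 of 45 UMIs in 1 cell, while the share of cells ran the other way, 46.2% with Ly6c2 and 71.4% without. Slpi was at 527 and 349, and at 1599 and 861. Jchain did not follow Ly6c2 in replicate 1, at 124767 and 125000 CPM, and in replicate 2 it was at 105092 with Ly6c2 and 149338 without. Ccr10 was at 436 and 444 in replicate 1 and at 376 and 599 in replicate 2.

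Cycling plasmablasts pass the same plasma cell gate and differ from the plasma cells by their cell cycle UMIs. In replicate 1 their median was 7865 UMIs outside immunoglobulin genes per cell, against 4306 in the plasma cells. Ratios of CPM are therefore not ratios of UMIs per cell. With 2 cycling cells in replicate 2, replicate 1 was compared without a test, as ratios with counting intervals, and a gene was counted from 2-fold on where the higher class had at least 20 UMIs. By this rule 428 of 6967 genes (6.14%) were higher in plasma cells and 790 (11.3%) were lower. The proliferation genes outside the gate were lower in 20 of 20 cases, a direction that the split of the classes by cell cycle genes favours. Stmn1 had 8 UMIs in plasma cells and 328 in cycling plasmablasts, a level 40.0-fold lower (95% counting interval 20.1 to 93.4). Among ER chaperones 0 of 24 genes passed 2-fold in either direction, and among genes of protein entry into the ER 1 of 24 did, Ssr2, which was 2.12-fold lower. Hsp90b1 was at 9720 against 12504 CPM and Txndc5 at 3325 against 2302.

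Some plasma cell genes were higher than in the cycling class. Jchain was 2.55-fold higher (counting interval 2.53 to 2.58), at 119765 against 46931 CPM, and Igha filled 15.7% of UMIs against 8.44%. Counted per cell the gaps were smaller, with medians of 529 against 378 Jchain UMIs and 1380 against 946 Igha UMIs. Cd93 was 3.22-fold higher (2.61 to 4.00), with 368 against 117 UMIs. Among stress genes, Eif2ak3 was 2.40-fold (1.96 to 2.94), Ppp1r15a 2.07-fold and Chac1 2.01-fold higher, and Slc3a2 was 2.51-fold higher (2.27 to 2.78). Slpi was 2.61-fold higher (2.20 to 3.11). Ccr10 and Ly6d hardly differed, with ratios of 0.937 (0.825 to 1.06) and 0.959 (0.829 to 1.11). Pou2af1 was at 643 against 908 CPM, a ratio of 0.709. Of the immunoglobulin mutation and switching list, 4 of 4 measured genes were lower. Among them Ung, a DNA repair gene, was 2.70-fold lower, on 13 UMIs in plasma cells. Psat1, of serine synthesis, was 5.71-fold lower.

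**Figure D5:**
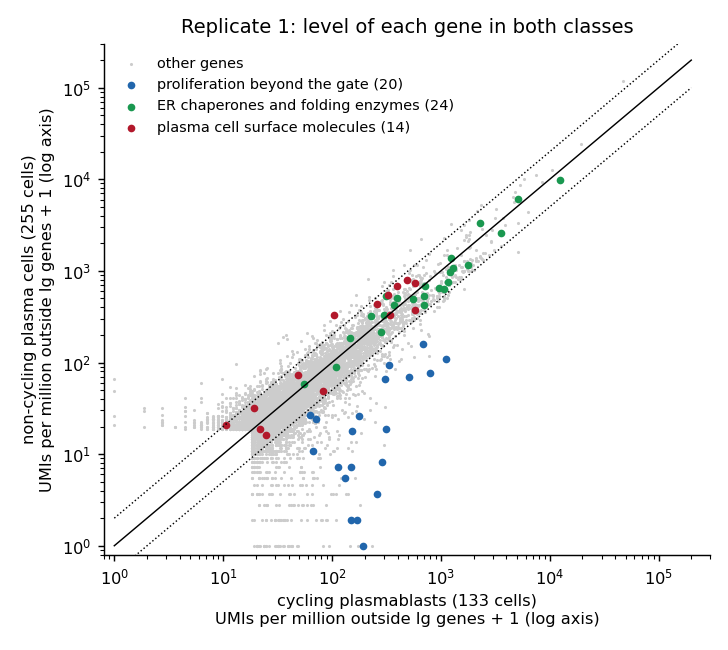
Each point is a gene in replicate 1, with its level in cycling plasmablasts on the horizontal axis and in non-cycling plasma cells on the vertical axis, both in CPM outside immunoglobulin genes plus 1 on log axes. The solid line marks equal levels and the dotted lines 2-fold. The 20 proliferation genes lie below the lower dotted line, and the 24 ER chaperones lie between the dotted lines.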

How the data were processed

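Per the file headers, the authors deposited UMI counts per cell and gene from the BD WTA Multiplex Rhapsody pipeline 1.8 (GRCm38, GENCODE vM19), without normalisation. The tag naming each cell's sample is also a deposited call, an other kind of value than a count. HISAT2 2.0.5 and Bowtie2 also stand in the submitters' processing notes, with no step given. Cells of sample tag 4 in the 8064-cell capture and tag 2 in the 15793-cell capture were used (2077 and 4532 cells, 11939862 and 12141164 UMIs), with multiplet calls left out and no doublet caller run. Kept cells had at least 300 genes and at most 25% mitochondrial UMIs. The 21027 genes present in both tables were used, and those left out held 0.0343% and 0.0105% of UMIs. The members and lists were chosen with earlier results of these data known.

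Counts were summed per replicate and class (plasma cells, cycling plasmablasts, all other kept cells), giving 6 sums with 2 residual degrees of freedom. They were fitted with edgeR 4.0.16 (quasi-likelihood, filterByExpr, TMM factors on UMIs outside 232 immunoglobulin gene segments, replicate as a block), because the sums of a replicate come from the same sample. The gate and immunoglobulin genes were not tested. The p-values lean on a spread shared over all genes (common biological coefficient of variation 0.311). On simulated counts for this comparison (9637 genes, 200 changed), 2%, 22%, 84% and 94% of 2-fold, 4-fold, 8-fold and 16-fold changes were recovered, with 2 false calls among 103. The counts were drawn with the spread that the fit itself estimated, so the false calls cannot show whether that spread is right. The changed genes were drawn only from genes with a mean of at least 50 CPM, so recovery at lower levels was not measured. Genes named are the 10 largest increases and decreases past adjusted p 0.05 with the same direction in both replicates and at least 20 UMIs in the higher class of each, plus the 4 tested genes of highest level in each of 17 lists. Other genes were chosen from the lists after their values were seen. Classes with fewer than 10 cells in a replicate were not tested. Alternatives were DESeq2 1.42.0, other library sizes, filters, gates and thinning. Intervals are exact binomial or Poisson-based. R 4.3.3 and Python 3.11.15 (numpy 2.4.6, scipy 1.17.1, pandas 2.3.3, matplotlib 3.10.9) were used. Sequences are from RefSeq. Some listed genes are not reported here.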

Additional observations from a re-analysis of the deposited data

How the results depend on the processing

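In the comparison with all other kept cells, DESeq2 called 338 genes higher and 250 lower, thinning every cell to 1000 UMIs outside immunoglobulin genes 250 and 271 (with 3863 genes tested), and leaving out plasma cells with 1% or more UMIs of other lineages 911 and 1941, in place of 599 and 1237. The cause of the differences was not tested. Without the replicate block the counts were 643 and 1062, of which 579 and 1011 were shared with the main result, and the block was used because both sums of a replicate come from the same cells' capture. The other settings kept both counts within 1.5 times. The median over all tested genes moved from -0.25 to -0.54 without the low-count filter. Of 147 listed or named genes that were called, 73 of 121 tested stayed called after thinning, 116 of 145 with DESeq2, 119 of 147 without the filter and 137 to 147 under each of the others. The top 10 increases, Jchain to Eaf2, stayed past the threshold under every setting that gave them a test. Leaving out a replicate leaves values with no test. Of 261 listed or named genes, 87 moved by more than the spread between replicates without replicate 1 and 36 without replicate 2. The values ran from -4.94 to 2.37 for Cenpf and from -3.01 to 1.00 for Vcam1 on the log2 scale, the higher values without replicate 1. Counts of calls could not be made without a replicate.

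The share of UMIs on immunoglobulin genes in plasma cells, 48.4% as the mean of both replicates, was 50.1% with a gate of 6 UMIs, 50.6% without cells with 1% or more UMIs of other lineages, 49.7% without the low-immunoglobulin cells and 40.4% without cells with 2 or more UMIs of other lineages. The last setting left 6 and 1 plasma cells and could not be fitted for the gene comparison. It counted Cd28 and Ly6c2, both higher in plasma cells, as UMIs of other lineages, while the 1% setting did not. The settings on 1% and on immunoglobulin content were chosen after seeing the data. Leaving out a replicate gave 47.96 to 48.7% for that share, 0.526 to 13.1% for the share of plasma cells among kept cells and 96.5 to 100% for the share of IgA-dominant cells. Other settings for the cycling and isotype comparisons were not run, since those classes had fewer than 10 cells in a replicate. Depth limits replicate 2 most, where the plasma cells held 96953 UMIs outside immunoglobulin genes.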

Other observations

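A few further genes of the plasma cells were chosen after their values were seen. Epcam, an adhesion molecule of epithelium, was higher than in all other kept cells (edgeR, log2 2.89, adjusted p = 8.52e-06), at 123 and 113 UMIs per 1000000 outside immunoglobulin genes (CPM) against 21.4 and 11.4. It was seen in 90 of 255 and 6 of 22 plasma cells, with at most 5 and 4 UMIs in a cell, while the whole list of 11 epithelial markers summed to 192 and 124 against 169 and 58.5, with 9 of them at 0 in replicate 2. Neil1, a DNA glycosylase, stood at 198 and 309 CPM against 35 and 28.1, and in replicate 1 it was 5.39-fold higher than in cycling plasmablasts (counting interval 3.86 to 7.69). Osgin1, an oxidative stress response gene, and Trf (transferrin) were 5.57-fold and 5.27-fold higher than in that class, with 23 and 20 UMIs in the 22 plasma cells of replicate 2.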
